A study of Bos grunniens with 3 samples.

Results

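Ribosomal protein genes, the genes of the proteins that make up the cytosolic ribosome, were followed through hair follicle and epidermal cells of Tianzhu white yak skin. The members were the rows of the deposited gene list whose symbol begins with RPL or RPS and a digit, without the RPS6K kinases, together with *RPLP0*, *RPLP1*, *RPLP2* and *RPSA*. The rule found 31 of 26924 genes. No row carries the symbol *RPLP1*, *RPLP2*, *RPSA* or *RPS27A*. Of the 31 members, 11 are proteins of the small ribosomal subunit, 17 are proteins of the large subunit and 3 are no standard ribosomal protein. The last are *RPL3L*, a paralog of *RPL3* known from striated muscle, *RPS27AP5*, the symbol of a pseudogene, and *RPS19BP1*, whose product binds RPS19. The list is partial: 80 protein-coding symbols of the RefSeq annotation of the assembly Bosgru_T2T1.0 match the rule, and 28 of them have a row of that symbol here. A further 11159 rows have an identifier and no symbol and hold 45.1% to 49.0% of the UMIs (unique molecular identifiers, counts of captured RNA molecules) of each library. Unnamed ribosomal protein genes among them were not looked for, so every share below is that of the named members and not of the whole family.

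The cells came from scapular skin of healthy yaks about 2 years old, from single follicles pulled out of enzyme-digested skin and taken apart with trypsin, and were sequenced with 10x Genomics 3' chemistry. There was 1 library from the growth phase of the hair cycle (anagen), 1 from its regression phase (catagen) and 1 from its resting phase (telogen). The study's paper describes sampling in anagen and catagen and does not describe the telogen library. The protocol text given with the catagen library names anagen, and its stage is taken from its title and stage label. No agent, genotype or sort separates the libraries, which animals went into which library is not given in the sources used here, and the stage cannot be told apart from the library or from the Cell Ranger version, which also differ between the 3.

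A ribosome is built from 2 subunits. The small subunit binds the mRNA and reads its codons, and the large subunit joins amino acids and lets the peptide out through its exit tunnel. The mRNAs of most ribosomal proteins begin with a run of pyrimidines (a 5'TOP start) and are translated together when growth signals are present. In the hair follicle, rapidly dividing matrix cells at the base give rise to the inner root sheath, which moulds the growing hair, and to the cortex, the keratin-filled body of the hair. In the epidermis, basal cells divide and suprabasal cells differentiate above them.

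After cells with fewer than 200 detected genes were left out, 11987 anagen, 12062 catagen and 14502 telogen cells remained, with a median of 5256, 3350 and 5583.5 UMIs per cell. Between 40 and 49 cell barcodes were shared by each pair of libraries. Cells were clustered with the members left out of the clustering, and clusters were named from fixed markers. Cluster 7 was called basal-like (689 anagen, 928 catagen and 723 telogen cells), clusters 5 and 21 suprabasal-like (1268, 916 and 674 cells), cluster 14 inner root sheath-like (576, 253 and 127 cells) and cluster 16 cortex-like (420, 228 and 165 cells). The cycling-like compartment joined the mitotic-like clusters 9 and 11 with the S phase-like clusters 15 and 19 (2319, 950 and 1185 cells). Its makeup differed between libraries: cluster 9 held 1093 of these cells in anagen, 143 in catagen and 360 in telogen. The defining markers were highest where the names put them: the 6 measured inner root sheath markers summed to 27170 to 48688 CPM (UMIs of a gene scaled to the same total in every library or compartment) in the inner root sheath-like cells and to at most 656 CPM in the other 4 compartments, and the 8 basal markers summed to 33318 to 46319 CPM in basal-like cells. Cycling-like cells also held basal markers, at 8540 CPM in anagen, 6301 CPM in catagen and 23184 CPM in telogen, and suprabasal-like cells held 2138, 2344 and 11473 CPM. Outer root sheath or bulge markers were highest of the 5 compartments in basal-like cells, at 8732, 4202 and 7173 CPM in anagen, catagen and telogen. *POSTN*, a marker of that class, was among the 10 leading genes of cluster 7. Endothelial markers summed to 2.89 CPM or less and mesenchymal markers to 2.76 CPM or less in all 5 compartments. Immune markers summed to 3.16 to 298 CPM, highest in catagen basal-like cells, with *CD52* at 0 throughout, and melanocyte markers reached 42.8 CPM in catagen cycling-like cells. The part of these cells in the results below was not tested. Cluster 15 is led by *DCN*, a matrix proteoglycan gene, beside *UHRF1* and *MCM5*, and its 5 measured mesenchymal markers summed to 0.826 to 1.48 CPM, with *COL3A1* and *LUM* at 0. Its melanocyte markers summed to 122 CPM in catagen and to 2.67 and 3.30 CPM in anagen and telogen. The naming rule left out, among others, clusters in which basal markers (clusters 3, 4 and 6) or suprabasal markers (clusters 1, 12 and 13) led more weakly. Clusters 1, 3, 4, 6 and 13 had no marker of that class among their 10 leading genes. Cluster 4 had *KRT1*, a suprabasal marker, there, and its basal markers had a mean log2 fold of 0.41. Cluster 3 had *POSTN*. Cluster 1 had *KRT79*, a companion layer or upper follicle marker, and *KRT17*, an outer root sheath or bulge marker. Most cells fell in no compartment: 6715 in anagen (56.0%), 8787 in catagen (72.8%) and 11628 in telogen (80.2%). Among them were the 418, 651 and 2939 cells of cluster 0, which took no name. The outer root sheath or bulge-like clusters 2 and 17 (804, 1934 and 947 cells) also lay outside the 5 compartments.

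The members were among the most abundant transcripts of these cells. They held 14.5% of all UMIs in anagen, 12.7% in catagen and 16.7% in telogen. *RPLP0*, whose product forms the base of the stalk that recruits elongation factors to the large subunit, had the most UMIs, at 12044 CPM in anagen, 10305 CPM in catagen and 12680 CPM in telogen. *RPS2*, a small subunit protein near the mRNA entry site, followed at 11182, 9587 and 11714 CPM. *RPS3A*, also of the small subunit, was among the 5 members with most UMIs, at 7340, 8742 and 8611 CPM. The median standard member stood at 5089 CPM in anagen, 4197 CPM in catagen and 6284 CPM in telogen. The lowest standard members were *RPL36A* in anagen (1099 CPM) and *RPS28* in catagen (960 CPM) and telogen (1287 CPM). These levels are UMI counts from the 3' end of transcripts, so gene length does not enter them. Unequal capture and reads lost to the many processed copies of ribosomal protein genes in mammalian genomes may, which was not tested. Levels of different members are uncertain for that reason.

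The share of UMIs taken by the members differed between compartments. Suprabasal-like cells had the lowest share of the 5 compartments in every library, at 12.6% in anagen, 12.1% in catagen and 14.7% in telogen. Basal-like cells had 14.1%, 14.8% and 17.5%. Inner root sheath-like cells had 18.9%, 14.3% and 20.2%, and cortex-like cells had 18.4%, 15.1% and 20.6%. Cycling-like cells had 16.4%, 14.5% and 17.3%. The widest exact (Clopper-Pearson) 95% interval of these shares ran from 15.1% to 15.2%, in catagen cortex-like cells. Such intervals cover counting error only, so differences are set against the spread between libraries.

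**Figure D1:**
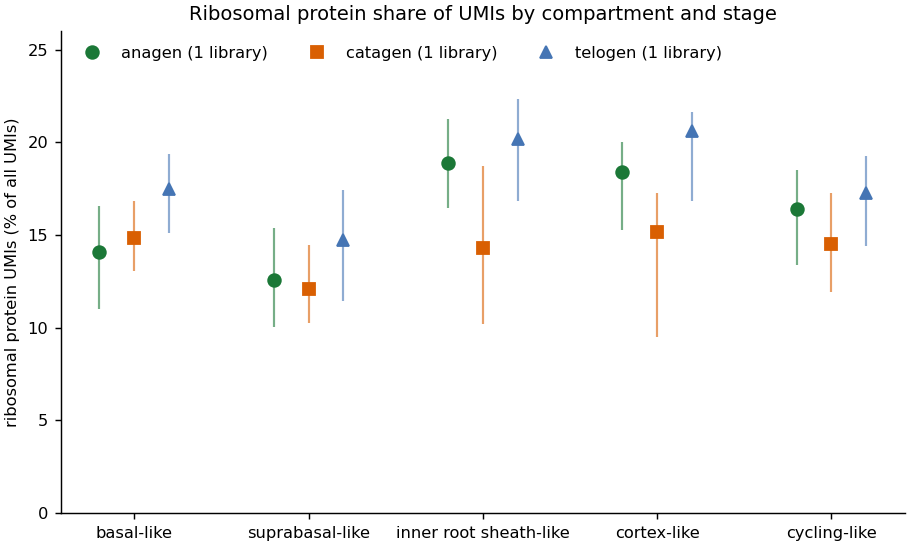
Share of UMIs that fell on ribosomal protein genes (y axis, % of all UMIs) in each compartment (x axis) of the anagen, catagen and telogen libraries, 1 library each. Points give the share of summed UMIs and vertical lines the middle 50% of cells. Suprabasal-like cells lie lowest in each library, and inner root sheath-like and cortex-like cells lie highest in anagen and telogen but beside basal-like cells in catagen.

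Set against basal-like cells of the same library, suprabasal-like cells were lower by 1.49 percentage points in anagen, 2.76 in catagen and 2.73 in telogen, a mean of -2.32 ± 0.72 percentage points (SD, n = 3; exact sign-flip permutation p = 0.25, two-sided, the smallest that 3 libraries allow). Cortex-like cells were higher by 4.30, 0.32 and 3.13 percentage points, a mean of 2.58 ± 2.05 (SD, n = 3; exact permutation p = 0.25). The catagen direction turned as a mean over cells, at 13.4% against 14.7% in basal-like cells, where the mean difference was 1.52 percentage points, and with the gene of most UMIs out of the total, at 16.9% against 17.4%. Inner root sheath-like cells were higher by 4.79 in anagen and 2.73 in telogen and lower in catagen, by -0.53, a mean of 2.33 ± 2.68 percentage points (SD, n = 3; exact permutation p = 0.5). The catagen difference was positive instead in cells with at least 1000 genes and without the cells of highest UMI totals. The same held with compartments set by marker score and with looser naming. In that order the mean differences over the libraries were 2.47, 2.71, 2.05 and 2.08 percentage points. Catagen stayed lower as a mean over cells, at 14.1% against 14.7% in basal-like cells. It also stayed lower with the gene of most UMIs out of the total, at 15.9% against 17.4%. Cycling-like cells were higher by 2.35 in anagen and differed by -0.30 in catagen and -0.22 in telogen, a mean of 0.61 ± 1.51 percentage points (SD, n = 3; exact permutation p = 1.0). All 4 differences share the basal-like cells. Without them, the inner root sheath-like share exceeded the suprabasal-like share by 6.28, 2.23 and 5.45 percentage points, a mean of 4.65 ± 2.14 (SD, n = 3; exact permutation p = 0.25). The cortex-like and inner root sheath-like shares differed by -0.48, 0.85 and 0.40 percentage points, which is within their spread. Of the cycling-like cells, the S phase-like clusters together stood above basal-like cells in all 3 libraries, by 3.42, 0.996 and 0.876 percentage points. The mitotic-like clusters stood 1.91 above in anagen and at -1.17 in catagen and -0.70 in telogen. The S phase-like cluster 19 had 14.3%, 13.7% and 17.1%, slightly above basal-like cells in anagen and below them in catagen and telogen. Cluster 15 alone had 19.0%, 16.3% and 21.5%, the highest share of the 27 clusters in each library. The sign of the mean cycling-like difference rested on it and on anagen: the mean was -0.03 percentage points without cluster 15, -0.26 without the anagen library and -0.19 with the gene of most UMIs out of the total.

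Clusters with weaker basal or suprabasal markers had shares of their own. Cluster 4 held 14.6% in anagen, 14.1% in catagen and 17.3% in telogen. Clusters 3 and 6 held 14.5% in anagen, 14.3% and 13.2% in catagen and 19.1% and 18.7% in telogen, near or above the basal-like share in anagen and telogen and below it in catagen. Clusters 1, 12 and 13 held 13.5%, 6.23% and 11.4% in anagen, 12.1%, 9.18% and 8.80% in catagen and 16.4%, 8.84% and 12.8% in telogen. In cluster 12 the gene of most UMIs took 40.2%, 30.9% and 34.0% of UMIs. With that gene out of the total, the share in cluster 12 was 10.4%, 13.3% and 13.4%. Its catagen cells had a median of only 1018 UMIs. Within the suprabasal-like cells, cluster 5 held 12.9%, 12.8% and 15.2% and cluster 21, which is led by *KRT77*, held 10.6%, 9.56% and 11.2%, lower in all 3 libraries. Cluster 0 held 2.61%, 8.35% and 14.5%, with the gene of most UMIs at 60.2%, 38.7% and 21.6% of its UMIs. The outer root sheath or bulge-like clusters together held 14.4%, 11.4% and 17.4%, in catagen below the suprabasal-like share.

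The share also varied from cell to cell. The middle 50% of basal-like cells lay between 11.0% and 16.6% in anagen, 13.1% and 16.9% in catagen and 15.1% and 19.4% in telogen. Catagen cells spread furthest in the cortex-like cells (9.49% to 17.2%) and inner root sheath-like cells (10.2% to 18.7%). Cells of low depth had lower shares there: with the cortex-like cells of catagen ordered by UMIs and split into 4 equal groups, the lowest group held 7.60% and the others 14.96%, 16.4% and 15.2%. In catagen inner root sheath-like cells the lowest group held 10.8% and the others 16.3%, 16.0% and 13.3%. Depth moved with the share in basal-like cells too, from 11.9% in the lowest group to 15.3% in the highest in anagen and from 14.3% to 18.2% in telogen, but not in catagen, where both were 14.4%. Median depth itself differed, at 5660, 3730 and 6237 UMIs in basal-like cells and 4445, 6885 and 13937 UMIs in inner root sheath-like cells of anagen, catagen and telogen.

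Single members were then compared between compartments in 1 edgeR fit of UMIs summed per library and compartment, with library as a block. After the filter on low counts, 29 members and 9863 genes in all were tested, and *RPL3L* and *RPS27AP5* were not. A gene was called at a Benjamini-Hochberg adjusted p below 0.05 over all genes tested. The main fit scaled libraries by TMM, which sets the middle of the genes to no change. Scaling by total UMIs instead moved the median log2 fold change of all genes from -0.03 to 0.29 in cortex-like cells, from -0.01 to 0.43 in cycling-like cells, from -0.01 to -0.09 in suprabasal-like cells and from -0.02 to 0.04 in inner root sheath-like cells. A direction for the members therefore depends on the scale in cortex-like and cycling-like cells, and both counts are given.

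Suprabasal-like cells had few calls among the members. *RPS21*, a small subunit protein, stood at 2228, 2149 and 2893 CPM in basal-like cells of anagen, catagen and telogen and at 1500, 1340 and 2027 CPM in suprabasal-like cells, so it was lower in each library. Its log2 fold change was -0.52 ± 0.14 (SE; edgeR adjusted p = 0.0102), and it was not called without the anagen or the telogen library (adjusted p of 0.0624 and 0.059). It was the only one of 29 members called lower with TMM, and 0 were called higher, against 14.9% of all genes called lower and 15.7% called higher. With total UMIs 5 members were called lower, with *RPS21*, *RPL32*, *RPL34* and *RPL30* among them, and 0 higher, against 16.4% and 12.6% of all genes. At an unadjusted p below 0.05 in the TMM fit no member was higher, and DESeq2 called some lower and none higher. The share of all genes is not given here for these counts, so they are not a result about the members. The median log2 fold change of the members was -0.15, beside -0.01 over all genes, and 25 of the 29 values were below 0.

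In inner root sheath-like cells the called members were mostly higher. Their share called higher was near that of all genes with TMM (24.1% against 22.3%) and above it with total UMIs (44.8% against 23.5%). *RPL15*, a core protein of the large subunit, rose from 3827, 3508 and 5037 CPM in basal-like cells of anagen, catagen and telogen to 7201, 5192 and 8131 CPM, and the groups did not overlap. *RPL36A*, a large subunit protein at the exit site for tRNA, rose from 954, 1057 and 1161 CPM to 1660, 1480 and 1889 CPM, again with no overlap. *RPS19BP1*, at far lower levels, rose from 66.1, 43.9 and 86.1 CPM to 123, 66.3 and 151 CPM, higher in each library, though the groups overlapped and catagen was lowest in both. Their log2 fold changes were 0.65 ± 0.15, 0.59 ± 0.14 and 0.70 ± 0.14 (SE; edgeR adjusted p of 0.00243, 0.00262 and 0.000772). Without the anagen library *RPL15* and *RPL36A* were not called (edgeR adjusted p of 0.060 and 0.065). *RPS19BP1* kept its call in all 11 alternatives. *RPL7A*, *RPL8*, *RPS10* and *RPL24* were also called higher, which made 7 of 29 members higher and 1 lower, against 22.3% of all genes higher and 25.5% lower. With total UMIs 13 members were called higher and 1 lower, against 23.5% and 23.4% of all genes. The median log2 fold change of the members was 0.13, beside -0.02 over all genes. The count changed with the library left out: without anagen 1 member was called higher, without telogen 5, and without catagen 16. The share of all genes called in these fits is not given here, so these counts are not a result about the members.

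*RPLP0* was the member called lower in inner root sheath-like cells. It stood at 15547, 16467 and 18998 CPM in basal-like cells of anagen, catagen and telogen and at 14728, 11425 and 14506 CPM in inner root sheath-like cells, so each library moved down and the anagen change was slight. The log2 fold change was -0.41 ± 0.16 (SE; edgeR adjusted p = 0.0429). The call did not hold in any of the 3 fits that left out a library (adjusted p of 0.050003 without anagen, 0.184 without catagen and 0.231 without telogen) or with each library clustered alone (0.0619). With a looser naming rule, under which the inner root sheath-like cells stayed cluster 14 and clusters 3 and 6 joined the basal-like cells, the log2 fold change was 0.026 (adjusted p = 0.889). Cluster 7 had the highest *RPLP0* level of all clusters in each library. Clusters 3 and 6 held 10964 and 10715 CPM in anagen, 10329 and 9112 CPM in catagen and 14010 and 13405 CPM in telogen. Cluster 4, which did not join the basal-like cells under the looser rule, held 14532, 14681 and 16058 CPM.

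In cortex-like cells the members split. *RPS19BP1* rose to 159, 91.9 and 188 CPM in anagen, catagen and telogen, above the basal-like levels in every library (log2 fold change 0.84 ± 0.14, edgeR adjusted p = 0.000207). *RPL36A* rose to 1726, 1675 and 1974 CPM (0.43 ± 0.14, adjusted p = 0.0171). *RPL7A*, a large subunit protein, rose from 4972, 3784 and 5607 CPM to 8320, 5823 and 9064 CPM, with no overlap between the groups (0.36 ± 0.13, adjusted p = 0.0366). *RPLP0* was lower at 14983, 11648 and 14976 CPM (-0.63 ± 0.16, adjusted p = 0.00454). *RPS28*, a small protein at the mRNA exit of the small subunit, was at 1314, 1280 and 1402 CPM in basal-like cells and at 1165, 899 and 1276 CPM in cortex-like cells (-0.61 ± 0.15, adjusted p = 0.00499). *RPL32* was at 5678, 6381 and 7311 CPM and at 6062, 4792 and 7101 CPM, lower in catagen and telogen and higher in anagen (-0.46 ± 0.17, adjusted p = 0.0368).

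With TMM 3 members were called higher and 5 lower in cortex-like cells, against 21.6% and 25.4% of all genes, whereas with total UMIs 14 were called higher and 1 (*RPLP0*) lower, against 33.0% and 17.8% of all genes. The median of the members was -0.09 with TMM and 0.24 with total UMIs, and it lay below the median of all genes by -0.06 and -0.05 on the respective scales. *RPL30* and *RPL23* were the other members called lower with TMM. *RPL36A* and *RPL7A* were not called without the anagen or the telogen library, with adjusted p from 0.109 to 0.256, or at the lower clustering resolution (0.141 and 0.0573), and *RPL7A* was also not called without the filter on low counts (0.0555) or with each library clustered alone (0.0520). *RPLP0* was not called without telogen (adjusted p = 0.0555) or with the looser naming (log2 fold change -0.20, adjusted p = 0.229), and *RPL32* was called in none of the 3 fits that left out a library. Without catagen 8 members were called higher and 2 lower, counts for which the share of all genes is not given here.

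In cycling-like cells *RPLP0* and *RPS28* were lower than in basal-like cells on both scales, and the balance of higher and lower calls among the members turned with the scale. *RPLP0* stood at 12545, 10582 and 13015 CPM in anagen, catagen and telogen, below the basal-like level in each library (log2 fold change -0.96 ± 0.16, edgeR adjusted p = 0.000376 with TMM and 0.00105 with total UMIs). *RPS28* was at 1152, 889 and 1171 CPM, also below it in each library (-0.78 ± 0.15, adjusted p = 0.00132 with TMM and 0.0284 with total UMIs). *RPS25*, a small subunit protein used by some viral and cellular internal ribosome entry sites, fell from 4900, 5705 and 6278 CPM to 4763, 4363 and 5568 CPM (-0.66 ± 0.17, adjusted p = 0.00651), a call that was lost with total UMIs (adjusted p = 0.161). With TMM 12 members were called lower and 0 higher, against 18.7% and 18.0% of all genes, whereas with total UMIs 2 were called lower and 9 higher, against 8.38% and 38.5% of all genes. At an unadjusted p below 0.05 in the TMM fit no member was higher, and DESeq2 called none higher. The share of all genes is not given here for these 2 counts. The members' median was -0.36 with TMM and 0.09 with total UMIs, and on both scales it lay below the median of all genes, by -0.35 and -0.33. With TMM, 5 members were called lower without the catagen library and 6 without telogen, again without the share of all genes beside them.

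**Figure D2:**
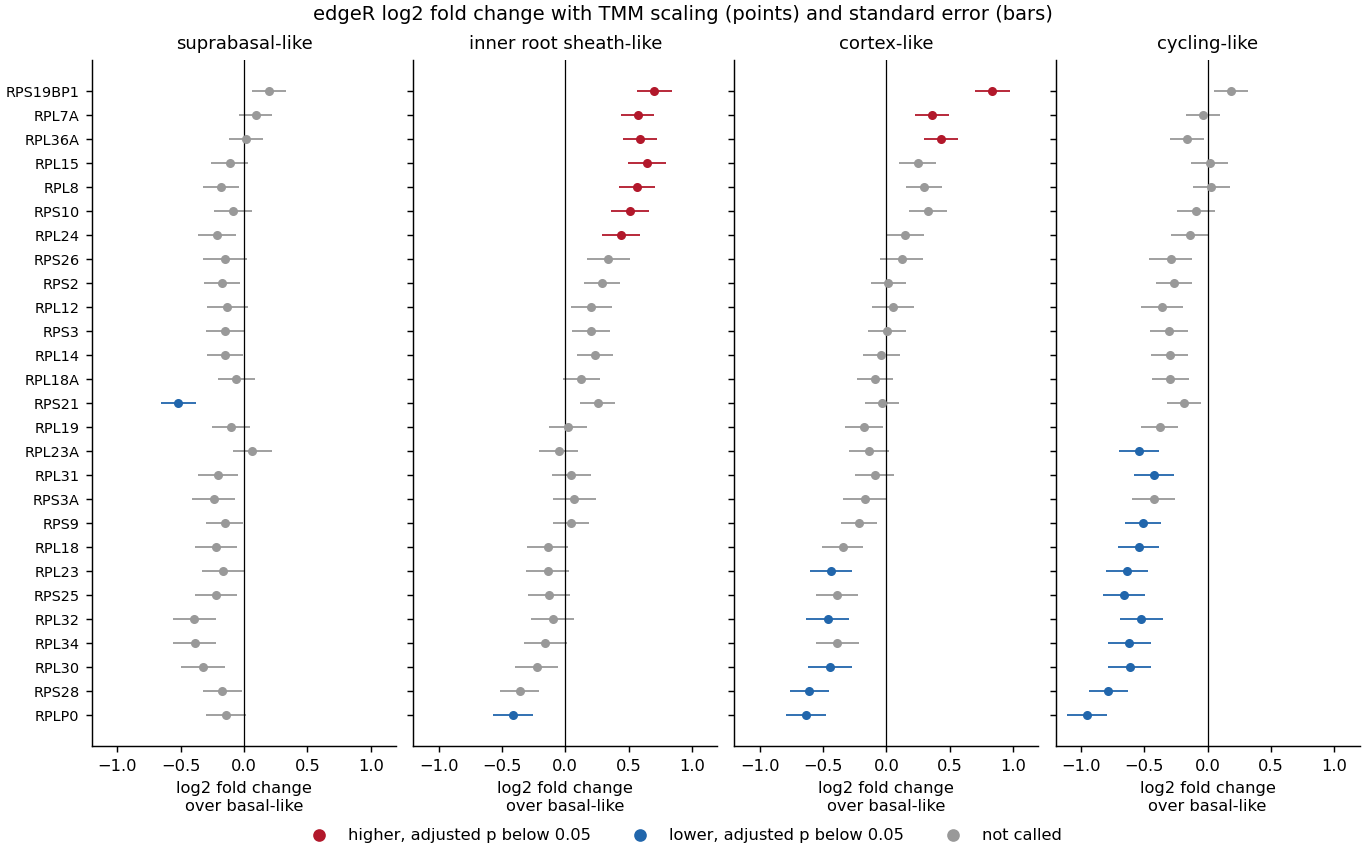
edgeR log2 fold change over basal-like cells (x axis) of tested members (y axis) in the 4 other compartments, with TMM scaling. Bars are 1 standard error, red marks members called higher and blue members called lower. *RPS19BP1*, *RPL36A* and *RPL7A* lie at the upper end and *RPLP0* and *RPS28* at the lower end. In cycling-like cells 11 of the 27 members drawn are blue, against 18.7% of all genes called lower. Scaling by total UMIs instead called 9 members higher there, against 38.5% of all genes.

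The members did not move by equal amounts, and their order relative to each other does not depend on the scaling. For each standard member, the ratio of its CPM to that in basal-like cells was taken in every library. In inner root sheath-like cells the mean log2 ratio over the libraries ran from -0.33 (*RPLP0*) to 0.72 (*RPL15*), in cortex-like cells from -0.30 (*RPLP0*) to 0.76 (*RPL36A*) and in cycling-like cells from -0.50 (*RPLP0*) to 0.48 (*RPL8*). In suprabasal-like cells the range ran from -0.59 (*RPS21*) to 0.02 (*RPL7A*). *RPL7A*, *RPL36A*, *RPL15*, *RPL8* and *RPS10* stood above basal-like cells in all 3 libraries of the inner root sheath-like, cortex-like and cycling-like cells, while *RPLP0* and *RPS28* stood below in all of them, on the CPM scale, which is that of total UMIs. These 3 comparisons share the basal-like cells, so their likeness is no separate evidence.

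**Figure D3:**
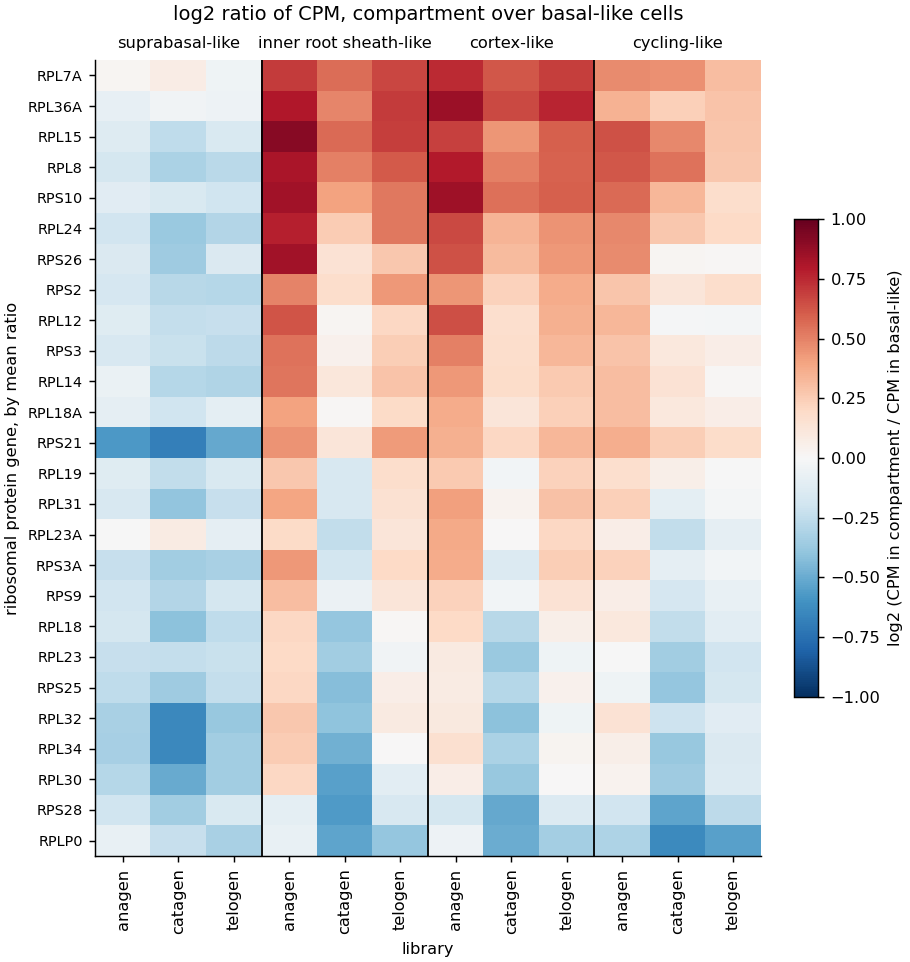
log2 ratio of CPM in each compartment to CPM in basal-like cells of the same library for standard members (rows, ordered by mean ratio), with 3 library columns per compartment. Red is higher and blue lower than in basal-like cells. Rows from *RPL7A* down to *RPS10* are red in all libraries of inner root sheath-like, cortex-like and cycling-like cells, *RPLP0* and *RPS28* are blue there, and *RPS21* is the bluest row of suprabasal-like cells on average.

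Ratios of 2 members within a compartment need no reference compartment and no scaling. The pairs were chosen after their values had been seen and are given as a description. *RPL7A* had 0.32, 0.23 and 0.30 UMIs for each UMI of *RPLP0* in basal-like cells of anagen, catagen and telogen, and 0.34, 0.28 and 0.36 in suprabasal-like cells. It had 0.55, 0.49 and 0.61 in inner root sheath-like cells, 0.56, 0.50 and 0.61 in cortex-like cells and 0.55, 0.49 and 0.53 in cycling-like cells. The lowest of these 9 values was above the highest of the 6 basal-like and suprabasal-like ones. Single clusters overlapped. The basal-marked clusters 3 and 6 had 0.45 and 0.45 in anagen, 0.36 and 0.38 in catagen and 0.45 and 0.46 in telogen. Cluster 4, which had the suprabasal marker *KRT1* among its leading genes, had 0.36, 0.27 and 0.36, nearer to cluster 7 than clusters 3 and 6 were. Cluster 19, which belongs to the cycling-like cells, had 0.42, 0.34 and 0.49. Among clusters with at least 50 cells in each library, cluster 7 had the lowest ratio and cluster 17, an outer root sheath or bulge-like cluster with *LGR5* among its leading genes, the highest (0.77, 0.68 and 0.80). The ratio of *RPL36A* to *RPS28* was 0.73, 0.83 and 0.83 in basal-like cells, 1.35, 1.72 and 1.51 in inner root sheath-like cells and 1.48, 1.86 and 1.55 in cortex-like cells. Cycling-like cells lay between, at 1.06, 1.40 and 1.21. For *RPL36A* to *RPS28* the basal-marked clusters 3 and 6 were close to cluster 7 in anagen (0.73 and 0.72) and somewhat above it in catagen (0.92 and 0.89) and telogen (0.98 and 1.03). Cluster 4 had 0.75, 0.90 and 0.87. Cluster 16, the cortex-like cluster, had the highest ratio in each library among clusters with at least 50 cells in each.

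**Figure D4:**
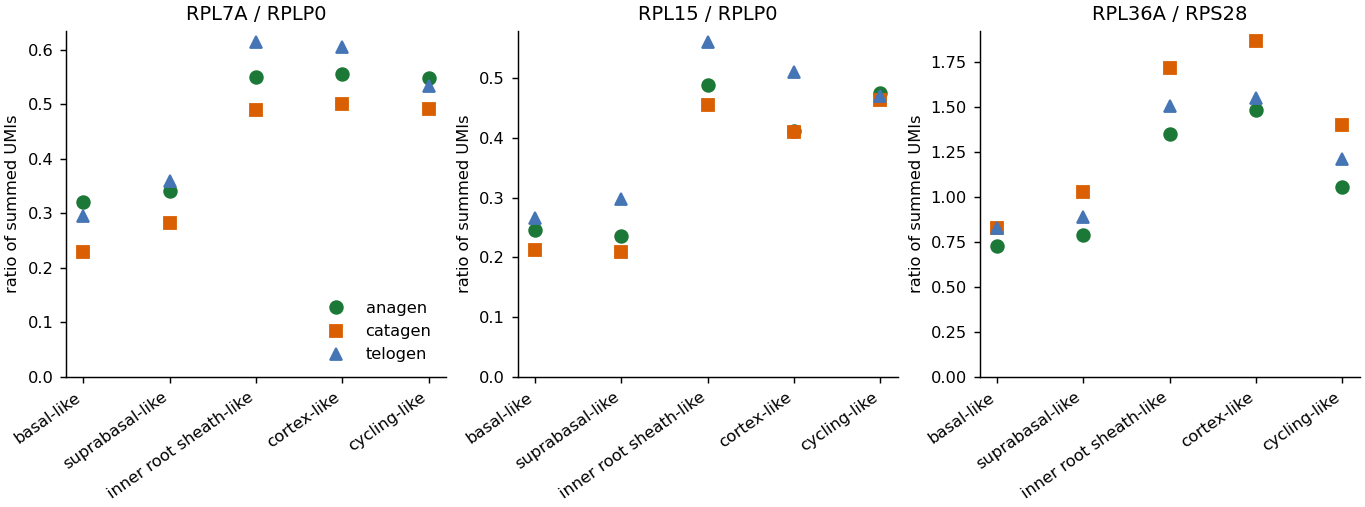
Ratio of summed UMIs of *RPL7A* to *RPLP0*, *RPL15* to *RPLP0* and *RPL36A* to *RPS28* (y axes) in each compartment (x axis), 1 point per library. The 3 ratios are higher in inner root sheath-like, cortex-like and cycling-like cells than in basal-like cells of the same library.

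Against basal-like cells of the same library, the subunit balance shifted slightly toward small subunit members in inner root sheath-like, cortex-like and cycling-like cells. The 11 small subunit members held 0.65, 0.69 and 0.63 UMIs for each UMI of the 17 large subunit members in basal-like cells of anagen, catagen and telogen. The ratio was 0.63, 0.69 and 0.63 in suprabasal-like cells, 0.69, 0.75 and 0.67 in inner root sheath-like cells, 0.70, 0.77 and 0.69 in cortex-like cells and 0.69, 0.75 and 0.67 in cycling-like cells. It was higher in catagen than in anagen and telogen in each compartment.

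Between stages there is 1 library each, so no test was made, and a member counts as changed when its CPM differed by at least 1.5-fold, among genes with a mean of at least 50 CPM over both libraries. Counting intervals at 95% cover counting error only. Over whole libraries the members' share was 1.73 percentage points lower in catagen than in anagen, 2.28 higher in telogen than in anagen and 4.02 higher in telogen than in catagen. Whole libraries include the cells of no compartment, the larger part of each library. The gene with the most UMIs, ENSBGRG00000010006, which has no symbol, took 10.2% of UMIs in anagen, 15.1% in catagen and 6.89% in telogen, the reverse order of the members' shares. With that gene out of the total the differences were -1.11, 1.88 and 2.99 percentage points.

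From anagen to catagen 25 of the 29 members had a lower CPM and 4 a higher one, with a median log2 ratio of -0.22 beside -0.07 over all genes. Among the highest were *RPS3A* (7340 CPM in anagen and 8742 CPM in catagen, log2 ratio 0.25, interval 0.25 to 0.26) and *RPL23A*, which lies at the exit tunnel (1286 and 1435 CPM, 0.16). The 3 lowest were *RPS19BP1* (87.5 and 48.1 CPM, -0.86, interval -0.93 to -0.80), *RPL7A* (5750 and 4029 CPM, -0.51) and *RPL8* (6328 and 4574 CPM, -0.47). Only *RPS19BP1* passed 1.5-fold, so 1 of 29 members was lower and 0 higher, against 13.6% of all genes lower and 9.33% higher.

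From anagen to telogen 28 of the 29 members had a higher CPM, with a median log2 ratio of 0.25 beside -0.08 over all genes. *RPS9* (4439 CPM in anagen and 5847 CPM in telogen, 0.40), *RPL23A* (1676 CPM in telogen, 0.38) and *RPL24* (3755 and 4855 CPM, 0.37) were highest. *RPS3*, a small subunit protein that also has a part in DNA repair, was lowest (3619 and 3557 CPM, -0.02), and *RPS2* (0.07) was also among the lowest. No member passed 1.5-fold in either direction, against 8.96% of all genes higher and 18.6% lower.

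From catagen to telogen 27 members had a higher CPM, with a median log2 ratio of 0.45 beside -0.02 over all genes. *RPS19BP1* (0.97), *RPL15* (3369 CPM in catagen and 5403 CPM in telogen, 0.68) and *RPS10* (4122 and 6496 CPM, 0.66) were highest, and *RPS3A* (-0.02) and *RPL23* (0.21) were among the lowest. By 1.5-fold 8 of 29 members were higher and 0 lower, against 20.8% of all genes higher and 23.4% lower. The 3 comparisons of stages share libraries, so they are not separate evidence.

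**Figure D5:**
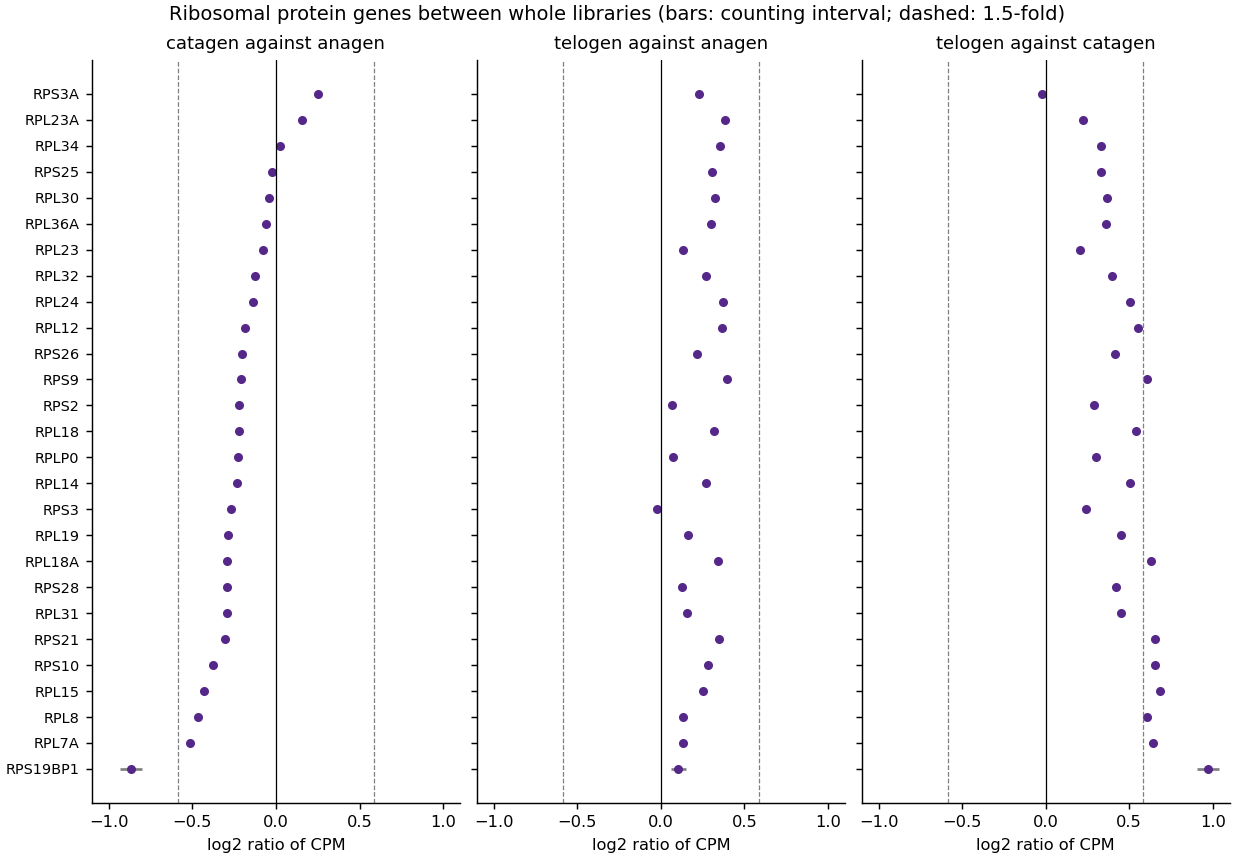
log2 ratio of CPM between whole libraries (x axis) for members with a mean of at least 50 CPM (y axis, ordered by catagen against anagen). Grey bars are 95% counting intervals, mostly hidden by the points, and dashed lines mark 1.5-fold. *RPS3A* and *RPL23A* lie right of 0 in catagen against anagen, where *RPS19BP1* is the point beyond the left dashed line.

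The stage difference was not the same size in each compartment. Catagen minus anagen, the share differed by -4.57 percentage points in inner root sheath-like, -3.24 in cortex-like, -1.91 in cycling-like, -0.52 in suprabasal-like and 0.74 in basal-like cells. From anagen to telogen it was higher in all 5, by 3.39 in basal-like, 2.16 in suprabasal-like, 1.33 in inner root sheath-like, 2.22 in cortex-like and 0.83 in cycling-like cells. With ENSBGRG00000010006 out of the total, the suprabasal-like difference between catagen and anagen turned to 0.37 and the basal-like one was 1.48, while the inner root sheath-like one was -3.98. Against anagen, the median member of catagen stood at a log2 ratio of -0.47 in inner root sheath-like, -0.32 in cortex-like, -0.21 in cycling-like, -0.12 in suprabasal-like and 0.04 in basal-like cells, where the medians of all genes were -0.08, 0.04, 0.06, -0.06 and -0.22.

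Members also differed from each other between catagen and anagen within compartments. *RPS3A* was at 7049 CPM in anagen and 10227 CPM in catagen in basal-like cells, 6019 and 8023 CPM in suprabasal-like cells and 8278 and 9590 CPM in cycling-like cells. It was lower in catagen in inner root sheath-like cells, at 9543 and 9023 CPM. *RPL7A* was lower in catagen in all 5 compartments, with log2 ratios from -0.53 in inner root sheath-like to -0.34 in suprabasal-like cells. *RPL8* was lower in all 5 as well, from -0.55 to -0.24.

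The members outside the standard ribosome were rare. *RPL3L* had 12 UMIs in anagen, 15 in catagen and 14 in telogen, and *RPS27AP5* had 3, 6 and 3, so neither can be compared between compartments. In basal-like cells *RPS27AP5* had 0 UMIs in every library. *RPS19BP1* had 7247, 2477 and 9739 UMIs, enough for the comparisons above, and its highest level of the 5 compartments was in cortex-like cells in each library.

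Genes that act with the ribosome were counted in the same fit. *EEF2*, the elongation factor that moves the ribosome along the mRNA, was called lower with TMM in cycling-like cells (-0.39 ± 0.12, adjusted p = 0.0231), although its CPM was above the basal-like level in catagen (1469 against 1222 CPM) and telogen (803 against 788 CPM). Of the 7 translation factors and other genes of 5'TOP mRNAs with a row (18 were listed), 1 was called higher and 4 lower in cycling-like cells, 1 and 3 in cortex-like, 1 and 1 in inner root sheath-like and 0 and 1 in suprabasal-like cells. With TMM, 18.0%, 21.6%, 22.3% and 15.7% of all genes were called higher in these compartments and 18.7%, 25.4%, 25.5% and 14.9% lower. With total UMIs the cycling-like counts were 2 higher and 1 lower, against 38.5% and 8.38% of all genes. The cortex-like counts were 1 and 1, against 33.0% and 17.8%.

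Genes for making ribosomes were counted next. Of 20 tested ribosome biogenesis genes, 10 were higher and 2 lower in inner root sheath-like cells, 8 and 3 in cortex-like, 6 and 1 in cycling-like and 1 and 1 in suprabasal-like cells, with median log2 fold changes of 0.66, 0.54, 0.34 and -0.25. Over all genes tested, 22.3%, 21.6%, 18.0% and 15.7% were called higher in these compartments and 25.5%, 25.4%, 18.7% and 14.9% lower. With total UMIs 10, 12, 13 and 1 of the 20 were higher and 1, 1, 1 and 2 lower. On that scale 23.5%, 33.0%, 38.5% and 12.6% of all genes were called higher and 23.4%, 17.8%, 8.38% and 16.4% lower. *FBL*, the methyltransferase of nucleolar ribosomal RNA modification, had 169, 65.2 and 83.2 CPM in basal-like cells of anagen, catagen and telogen and was higher in inner root sheath-like (181, 164 and 163 CPM; 0.69 ± 0.20, edgeR adjusted p = 0.00975) and cycling-like cells (238, 243 and 149 CPM; 0.60 ± 0.19, adjusted p = 0.0255). *MYC*, which is among the 20 genes and is a transcription factor known to drive ribosome production, went the other way. In cycling-like and suprabasal-like cells it was the only gene of the list called lower with TMM. It had 58.1, 45.9 and 32.3 CPM in basal-like cells and 9.45, 7.29 and 5.16 CPM in cortex-like cells (-2.89 ± 0.23, adjusted p = 4.71e-07), and it was also called lower in cycling-like (-1.54), inner root sheath-like (-1.14) and suprabasal-like cells (-0.63).

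Genes of the separate mitochondrial ribosome had a row in 59 cases and 55 were tested. In inner root sheath-like cells 27 were called higher and 2 lower, with a median log2 fold change of 0.48, and in cortex-like cells 23 and 3, with a median of 0.38. In cycling-like cells the counts were 10 and 1 (median 0.21), and in suprabasal-like cells 7 and 1 (median 0.07), which is near and below the 18.0% and 15.7% of all genes called higher there. The background in inner root sheath-like and cortex-like cells was 22.3% and 21.6%. Total UMIs gave 28, 36, 37 and 2 higher and 2, 1, 0 and 2 lower calls in inner root sheath-like, cortex-like, cycling-like and suprabasal-like cells. On that scale 23.5%, 33.0%, 38.5% and 12.6% of all genes were called higher and 23.4%, 17.8%, 8.38% and 16.4% lower. The cytosolic ribosomal protein members in the same compartments had medians of 0.13, -0.09, -0.36 and -0.15 with TMM and 0.20, 0.24, 0.09 and -0.22 with total UMIs.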

How the data were processed

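The authors deposited raw UMI counts per gene and cell barcode for each library, as Cell Ranger wrote them, without normalization. Cell Ranger 4.0.0 (anagen), 3.1.0 (catagen) and 6.0.2 (telogen) stand in the file headers, whereas the submitters' processing notes name 2.1.1. The genome build is not given in the sources used here. The matrices held 12000, 12124 and 14573 cells and 82862998, 51647865 and 103511775 UMIs. The members and lists were chosen with earlier results of these data known.

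Cells with at least 200 genes were kept. Doublets were left in, no caller was run, and the gene list holds no mitochondrial genes by symbol. In R 4.3.3 with Seurat 5.3.0, the members were removed, 2000 variable genes per library were chosen, the libraries were integrated by anchors and clustered on 30 principal components with 20 neighbours at resolution 0.8 into 27 clusters. Of 81 markers, 68 had a row. A cluster took a name when its markers had a mean log2 fold of at least 1, at least 3 of them were raised 1.5-fold (10 CPM pseudocount) and 1 was among its 10 leading genes. The cut-offs for a name were picked with the clusters in view. Basal-like cells thus rest on 1 cluster.

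UMIs summed per library and compartment (15 sums) were tested with the quasi-likelihood test of edgeR 4.0.16 with TMM, library as a block, Benjamini-Hochberg over all genes and a threshold of 0.05. The procedure was tested on simulated sums with known changes of a few genes in cortex-like cells only and no library or stage effect. That simulation therefore cannot decide between the scalings or judge stages used as replicates. Since each library is of another stage, the spread between them holds the stage as well. Shares were compared with an exact sign-flip permutation over libraries. Stages, with 1 library each, were compared by CPM with exact intervals in Python 3.11.15 with scipy 1.17.1. Named members were *RPLP0*, those outside the ribosome, the 5 with most UMIs and the 3 highest and 3 lowest called or, between stages, tested. Others are named after their values were seen. Some genes that this rule names are not reported here. The alternatives were other scalings, no filter, DESeq2 1.42.0, other clusterings, other cell filters, other denominators and each library left out. Sequence features of the members were not analysed here.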

Additional observations from a re-analysis of the deposited data

Results flagged for a closer look

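The difference in the members' share between inner root sheath-like and basal-like cells went one way in anagen and telogen (4.79 and 2.73 percentage points) and the other in catagen (-0.53). The difference between cycling-like and basal-like cells was 2.35 in anagen, -0.30 in catagen and -0.22 in telogen. From anagen to catagen the share differed by 0.74 percentage points in basal-like cells and by -0.52, -4.57, -3.24 and -1.91 in suprabasal-like, inner root sheath-like, cortex-like and cycling-like cells. These opposite directions drew attention to them. The inner root sheath-like difference was positive in every library in cells with at least 1000 genes and without the cells of highest UMI totals. The same held with compartments set by marker score and with looser naming. In catagen it stayed negative as a mean over cells and with the gene of most UMIs out of the total. With 1 library per stage, the differences between them were not tested.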

How the results depend on the processing

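Leaving out a library, the share difference from basal-like cells ranged from -2.74 to -2.11 percentage points (suprabasal-like), 1.099 to 3.76 (inner root sheath-like), 1.72 to 3.72 (cortex-like) and -0.26 to 1.06 (cycling-like, negative without anagen). The members called ranged over 0 to 1, 1 to 16, 2 to 10 and 5 to 11. Without catagen the 10 cortex-like calls were mostly higher (8 against 2). For these fits the share of all genes called is not given here. Total UMIs gave 5, 14, 15 and 11 calls, mostly higher in cortex-like (14 against 1) and cycling-like cells (9 against 2), where TMM gave mostly lower ones. With total UMIs 33.0% and 38.5% of all genes were called higher in these 2 compartments and 17.8% and 8.38% lower. Suprabasal-like calls numbered 3 with DESeq2, 0 with each library clustered alone and 4 with looser naming, and cortex-like calls 4 with each library clustered alone. The share of all genes called is not given here for these fits either. The suprabasal-like share difference was -1.53 with each library clustered alone and the members kept. The cycling-like one was -0.19 with the gene of most UMIs out of the total and -0.026 without cluster 15. *RPLP0* in inner root sheath-like cells turned to a log2 fold change of 0.026 with looser naming. The causes of these changes were not tested.

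The stage differences in share (-1.73, 2.28 and 4.02 percentage points for catagen minus anagen, telogen minus anagen and telogen minus catagen) were -1.79, 2.61 and 4.39 without keratin genes in the total, -1.54, 1.95 and 3.50 as means over cells, -2.07, 2.17 and 4.24 in cells with at least 1000 genes, -1.90, 1.98 and 3.88 as means of the compartments, and -1.11, 1.88 and 2.99 without the gene of most UMIs. In cells with at least the smallest anagen UMI total the first 2 were -1.59 and 2.42. Alternatives not in the first plan, chosen after seeing the data, were the looser naming, the gene of most UMIs, cluster 15 left out, the mitotic-like clusters alone (0.0107 for the cycling-like share), cluster 21 left out (-1.85 for the suprabasal-like share) and the cells of highest UMI totals. No paired analysis was possible because each stage has 1 library. In the compartment fit the library was a block throughout.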
